A study of Homo sapiens with 32 samples.

Results

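The genes described here encode the mitochondrial respiratory chain and ATP synthase. They were chosen by chromosome and by name: every gene of the mitochondrial chromosome, and nuclear genes with the approved names of subunits of complexes I to V. Pseudogenes were left out. The rule took 127 of the 61541 genes in the deposited table: 13 mitochondrial mRNAs, 2 mitochondrial rRNAs, 22 mitochondrial tRNAs, 88 nuclear protein-coding genes and 2 noncoding RNAs that share a subunit's name. The tRNAs and the noncoding RNAs were kept apart, which left 103 genes, and these are the respiratory chain genes of the counts below. By complex, the nuclear genes numbered 37 for complex I, 4 for complex II, 10 for complex III, 18 for complex IV and 19 for complex V. The mitochondrial mRNAs numbered 7, 0, 1, 3 and 2 in the same order. NDUFA4, named as a complex I gene, was counted with complex IV, where its protein is found.

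The study sequenced polyadenylated RNA of 2 human germ cell tumour lines: NTera2, derived from an embryonal carcinoma, and TCam-2, derived from a seminoma. Cells of each line were kept for 48 h with the vehicle D-PBS or with RANKL, OPG or denosumab. RANKL binds the receptor RANK, OPG is a soluble decoy that catches RANKL, and denosumab is an antibody that blocks it. RANKL and OPG were used at 1 µg/ml per the labels' protocols. The treatment protocol lists RANKL again after OPG and does not name denosumab. Denosumab libraries are therefore known only by their titles and treatment labels, with no dose given in the sources used here. Each of the 8 groups had 4 libraries (n = 4 throughout), 1 from each of 4 independent experiments. Within a line, a replicate number stood for 1 passage, 27, 29, 30 and 31 in NTera2 and 118, 120, 121 and 122 in TCam-2. Each tumour type was represented by 1 line, and each line had its own culture medium, so line, tumour type and medium cannot be told apart. The media of both lines contained fetal bovine serum, and the labels name no engineered allele. p-values measure the spread between these passages of a line.

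The respiratory chain is built from the products of 2 genomes. Complex I takes electrons from NADH and complex II from succinate, complex III passes them from ubiquinol to cytochrome c, complex IV hands them to oxygen, and complex V makes ATP from the proton gradient. The mitochondrial DNA encodes a few core subunits of complexes I, III, IV and V and the rRNAs of the mitochondrial ribosome. Its genes are transcribed as long polycistronic RNAs that are then cut. Each of its protein-coding genes is counted here as an mRNA, also where genes overlap. Whether overlapping genes shared an mRNA was not tested. The remaining subunits, all of complex II among them, are nuclear genes whose proteins are imported.

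Total counts were 11385500 to 30499538 per library in NTera2 and 10585247 to 20257935 in TCam-2. Where given, RNA integrity numbers reached at least 8.3, apart from TCam-2 RANKL replicates 2 (6.1) and 4 (3.7). The lines carried their defining markers under vehicle: SOX2, a pluripotency factor lost in seminoma, was at 301 scaled counts (CPM, reads per 1e6 counted) in NTera2 and 2.52 in TCam-2, and SOX17, a seminoma marker, at 163 CPM in TCam-2 and 0.0344 in NTera2. Of 4 immune markers PTPRC, CD68 and CD3E had no counts in either vehicle group and LYZ was at 0.0195 CPM in TCam-2 and 0.0430 in NTera2. Some fibroblast and endothelial markers had counts: COL1A1 was at 8.61 CPM in TCam-2 and 30.0 in NTera2, and CDH5 at 4.00 and 0.499, and VWF was at 10.1 CPM or more in both lines. CPM values are scaled by TMM factors and are given as mean ± SD. A log2 fold change is given with its standard error (SE), and a gene was called higher or lower at an adjusted p under 0.05 (edgeR quasi-likelihood test, Benjamini-Hochberg adjustment over all genes tested).

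In 3 places mitochondrial mRNAs overlap on the same strand, so that a read there belongs to both genes. MT-ATP6 and MT-CO3 share 1 base, position 9207. The other stretches are longer and are printed below, because the genes concerned, subunits of ATP synthase and of complex I, are among those the results turn on. They are reference transcript sequences at the coordinates of the deposited table, 5′ to 3′ on the plus strand. Capitals mark the bases that belong to both genes.
MT-ATP8 end and MT-ATP6 start, chrMT:8507-8592: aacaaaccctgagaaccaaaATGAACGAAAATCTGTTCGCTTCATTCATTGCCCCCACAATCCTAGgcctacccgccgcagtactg
MT-ND4L end and MT-ND4 start, chrMT:10740-10786: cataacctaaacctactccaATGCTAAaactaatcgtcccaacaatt
The shared stretch is 46 bases, 22.2% of the 207 bases of MT-ATP8, and 7 bases, 2.36% of the 297 bases of MT-ND4L. Counts of MT-ATP8, MT-ATP6, MT-CO3, MT-ND4L and MT-ND4 are therefore uncertain at the overlaps.

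The first comparison asked how the lines differed without treatment. In the vehicle libraries TCam-2 had less of the mitochondrial genome's transcripts than NTera2, while more of the nuclear subunit genes were higher than lower. Of the 103 genes, 98 were tested, and 41 were called higher and 33 lower in TCam-2. Of all 16816 genes tested, 76.2% were called, 37.4% as higher and 38.8% as lower. Among the 13 mitochondrial mRNAs 12 were called lower and 0 higher, with a median log2 fold change of -0.73. Both rRNAs were lower. Among the 83 nuclear genes tested 41 were called higher, 19 lower and 23 were not called, with a median of 0.24. The median over all genes tested was -0.01. The nuclear median rested in part on TCam-2 vehicle replicate 4, without which it was 0.10. Of all respiratory chain genes, mitochondrial ones included, 41 were then higher and 39 lower, against 41 and 33 with that library. The median of the mitochondrial mRNAs without that library was -0.79.

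**Figure D1:**
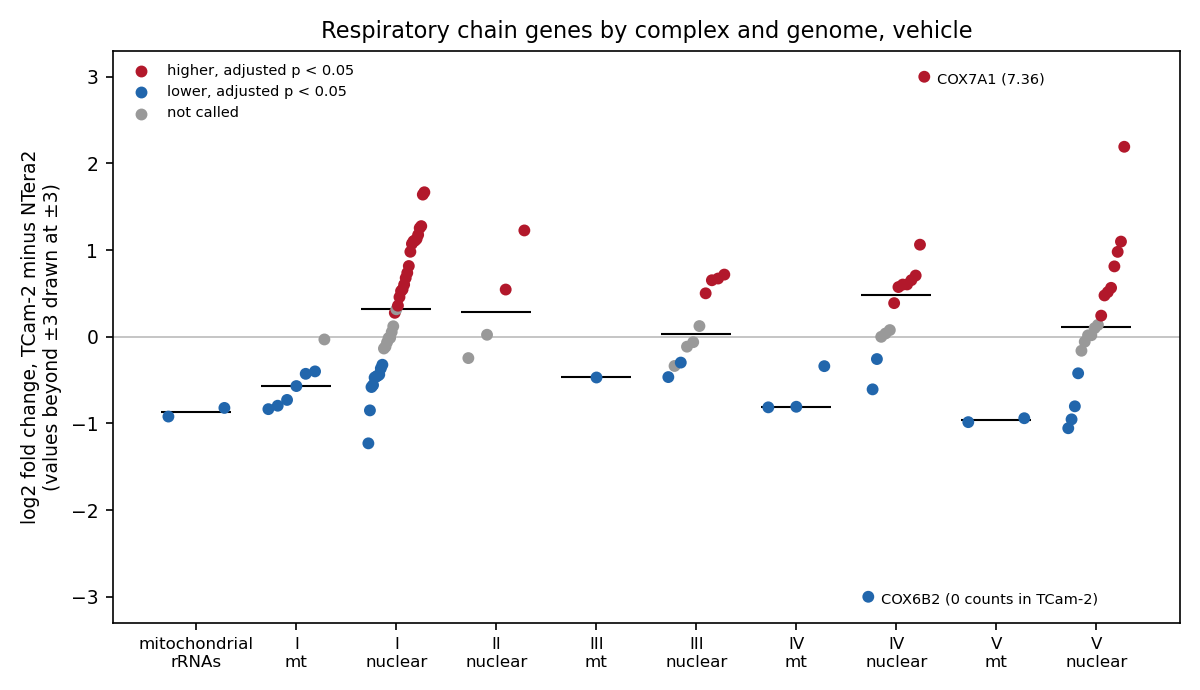
Log2 fold change of TCam-2 against NTera2 under vehicle for each tested gene (points), grouped by complex and by the genome that encodes it, with the median of each group as a bar. Red points were called higher, blue points lower and grey points neither; genes past 3 in either direction are drawn at 3 and named. The mitochondrial groups lie at or below 0, and the nuclear groups of complexes I, III, IV and V spread to both sides.

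The largest difference among the mitochondrial mRNAs was in MT-ATP8, a small subunit of the proton channel side of ATP synthase. Its CPM values were 382, 269, 306 and 340 in NTera2 and 202, 134, 162 and 158 in TCam-2 in the order of the replicates, so the lines did not overlap. The log2 fold change was -0.99 ± 0.11 (adjusted p = 6.75e-07, edgeR). MT-ATP6, the channel subunit beside it, had 1865, 1621, 1709 and 1695 CPM in NTera2 and 1035, 798, 816 and 950 in TCam-2. Its log2 fold change was -0.94 ± 0.08 (adjusted p = 1.08e-08, edgeR).

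The 3 core mRNAs of cytochrome c oxidase were all lower. MT-CO2 was at 5608 ± 205 CPM in NTera2 and 3213 ± 472 in TCam-2, a log2 fold change of -0.81 ± 0.08, and MT-CO3 had -0.81 ± 0.08 as well. MT-CO1 was at 5610 ± 268 and 4446 ± 527 CPM, with -0.34 ± 0.07. MT-CYB, the mitochondrial subunit of complex III, had a log2 fold change of -0.46 ± 0.06 and was lower in every TCam-2 library (1172 to 1430 CPM) than in any NTera2 library (1724 to 1905 CPM). Differences between these genes' fold changes were not tested.

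In complex I, the membrane arm subunits MT-ND2, MT-ND3, MT-ND4, MT-ND4L, MT-ND5 and MT-ND6 were called lower, with log2 fold changes from -0.40 (MT-ND4) to -0.84 (MT-ND6). MT-ND6 is the one mRNA on the other strand of the mitochondrial DNA. Its CPM values were 62.5, 80.2, 68 and 70.6 in NTera2 and 47.8, 27.9, 40.3 and 41.8 in TCam-2. These and all later values of MT-ND6 are levels in polyadenylated RNA, and how fully it was captured was not measured. MT-ND1 was the 1 mRNA of the 13 that was not called. Its CPM values of 1653, 1542, 1696 and 1686 in NTera2 and 1755, 1419, 1444 and 1831 in TCam-2 overlapped, and its log2 fold change was -0.03 ± 0.08 (adjusted p = 0.72, edgeR), with an approximate 95% interval from -0.18 to 0.12.

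The rRNAs were also lower in TCam-2. MT-RNR2, the large rRNA, was at 1913 ± 86.7 CPM in NTera2 and 1085 ± 150 in TCam-2 (log2 fold change -0.82 ± 0.08), and MT-RNR1, the small rRNA, at 243 ± 17.4 and 128 ± 19.3 CPM (-0.92 ± 0.10). Both were called lower. The libraries were made from polyadenylated RNA, so these are levels of the rRNA captured that way.

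The nuclear genome holds copies of mitochondrial genes, which can take up or lend reads. The copy of MT-ND1 on chromosome 1, MTND1P23 (hg38, 629062 to 629433), had 117 ± 17.7 CPM in TCam-2 and 1.10 ± 0.15 CPM in NTera2, a log2 fold change of 6.73 ± 0.15. With the reads of the 362 copies of mRNA genes added to their mitochondrial gene, MT-ND1 had a log2 fold change of 0.07 ± 0.08 (adjusted p = 0.42, edgeR), which is the opposite sign and still not called. This fit was chosen after seeing the data. Other abundant copies were those of MT-ATP6, MTATP6P1, at 154 ± 9.40 CPM in TCam-2 and 249 ± 10.1 in NTera2, and of MT-ND2, MTND2P28, at 90.2 ± 10.7 and 45.9 ± 6.82 CPM. With copies added, MT-ATP6 had -0.91 ± 0.07 and MT-ND2 -0.50 ± 0.07, and both were still called lower. The 373 rows of such copies include 11 MTRNR2L genes similar to MT-RNR2 that were not added. Their counts together were set against those of the mitochondrial chromosome in each library. They came to 0.955% to 1.08% in NTera2 and 1.72% to 1.87% in TCam-2, so the lines did not overlap. Which genome these reads came from was not tested.

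Levels of the mitochondrial mRNAs, which have no introns, were compared per kilobase of the deposited gene length. These are levels in polyadenylated RNA. How fully each mRNA was captured was not measured, so their order need not be that of abundance in the cell. On that scale MT-CO2 was highest of the mitochondrial mRNAs in both lines. It was at 8199 ± 300.2 CPM per kilobase in NTera2 and 4697 ± 690 in TCam-2. MT-ND6 was lowest, at 134 ± 14.1 and 75.2 ± 15.9. In NTera2 the next places went to MT-CO3 (4176 ± 185) and MT-ND4 (4164 ± 109), which did not differ beyond their spread. In TCam-2 they went to MT-ND4 (3164 ± 342) and MT-CO1 (2883 ± 342), which overlapped as well. The deposited length of a nuclear gene can take in more than its mRNA (12600 bases for UQCRB), so nuclear genes were not placed on this scale.

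**Figure D2:**
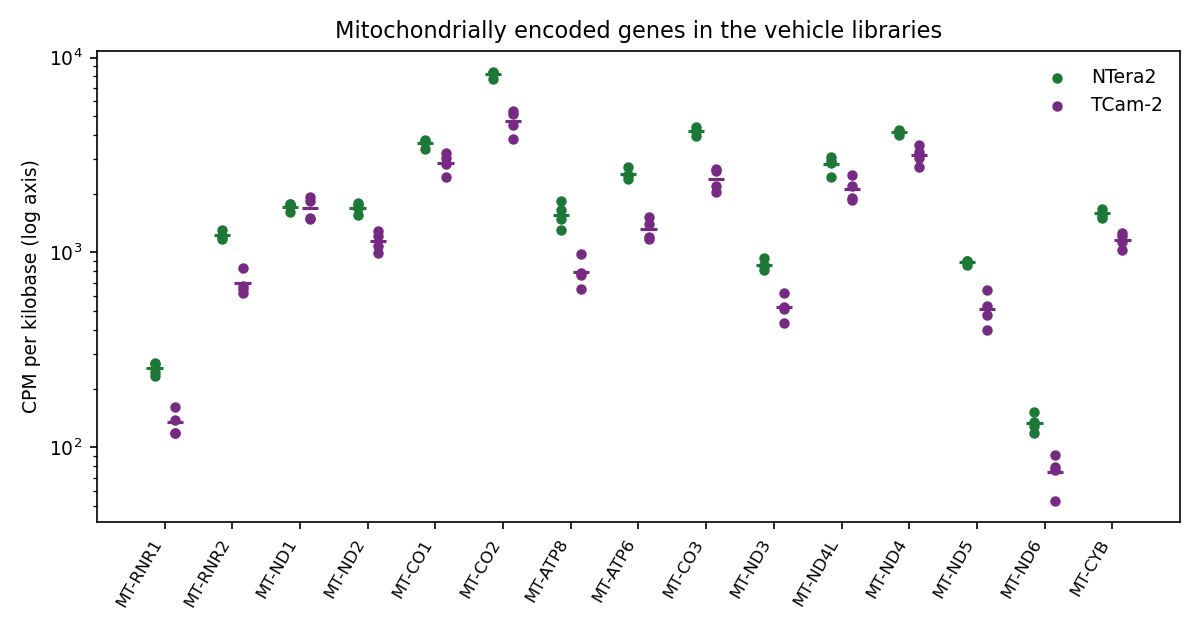
Level of each mitochondrially encoded rRNA and mRNA in the 4 NTera2 and 4 TCam-2 vehicle libraries, in CPM per kilobase on a log axis, in the order of their genes on the chromosome. Points are libraries and bars are group means; MT-ND1 is the mRNA whose lines overlap most, at 1612 CPM in TCam-2 and 1644 CPM in NTera2 on average.

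Complex I had members of both directions. Of its 37 nuclear genes 19 were called higher in TCam-2, 10 lower and 8 were not called, with a median log2 fold change of 0.32. NDUFV1, which binds NADH and flavin, had 123, 150, 122 and 129 CPM in NTera2 and 354, 400.5, 397 and 482 in TCam-2, so that every TCam-2 library was above every NTera2 library. Its log2 fold change was 1.64 ± 0.09 (adjusted p = 9.22e-11, edgeR). NDUFV2, the partner iron-sulfur subunit, was at 3.35 ± 1.06 CPM in TCam-2 and 1.06 ± 0.436 in NTera2, and NDUFA7, an accessory subunit, at 2.03 ± 0.615 and 0.836 ± 0.143. Both were called higher at these low CPM. On the opposite strand NDUFA7 overlaps RPS28, which had 238904 counts over the 32 libraries against 641 of NDUFA7. NDUFV2 and NDUFA7 each overlap another annotated gene on the same strand as well, so their counts are uncertain. The same holds for NDUFB8, at 40.5 ± 4.13 CPM in TCam-2 against 14.2 to 18.4 CPM in NTera2.

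On the lower side, NDUFA5, an accessory subunit of the matrix arm, had 33.2, 32.2, 31 and 31.9 CPM in NTera2 and 11.9, 17.7, 12.8 and 12.7 in TCam-2. The groups were far apart, and the log2 fold change was -1.23 ± 0.14 (adjusted p = 3.59e-07, edgeR). NDUFB2 (-0.85 ± 0.10) and NDUFB11 (-0.58 ± 0.09), accessory subunits of the membrane arm, were lower too. NDUFB2 overlaps ADCK2 on the same strand. Complex I genes that were not called included NDUFS1, the large iron-sulfur subunit, at 118 ± 16.1 CPM in TCam-2 and 123 ± 8.92 in NTera2 (log2 fold change -0.06 ± 0.09).

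Complex II is all nuclear. SDHA, the flavoprotein that oxidises succinate, had 8.9, 7.49, 7.66 and 11.3 CPM in NTera2 and 19.1, 23.2, 17.8 and 23.1 in TCam-2, with no overlap. Its log2 fold change was 1.23 ± 0.16 (adjusted p = 2.44e-06, edgeR), and it overlaps another annotated gene on the same strand. SDHB, the iron-sulfur subunit, was higher by 0.54 ± 0.09. The membrane anchors were not called: SDHC had 0.02 ± 0.07 and SDHD, which also overlaps another annotated gene on the same strand, -0.25 ± 0.12.

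In complex III, 4 of 10 nuclear genes were called higher and 2 lower, with a median log2 fold change of 0.03. UQCRB (0.72 ± 0.08), UQCRQ (0.67 ± 0.08) and the core protein gene UQCRC1 (0.65 ± 0.07) were the highest. UQCRH, the hinge protein near cytochrome c1, was lower, with 467, 527, 462 and 472 CPM in NTera2 and 318, 366, 322 and 392 in TCam-2 (-0.47 ± 0.08). UQCRC2, the other core protein, was lower by -0.30 ± 0.08.

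Complex V had 8 of 18 tested nuclear genes higher and 4 lower, with a median of 0.12. ATP5F1E, the epsilon subunit of the catalytic head, differed most among the nuclear genes present at more than trace level in both lines. Its CPM values were 68.4, 60, 64.9 and 66.8 in NTera2 and 313, 267, 301 and 311 in TCam-2. The log2 fold change was 2.19 ± 0.07 (adjusted p = 9.59e-14, edgeR), 4.57-fold. Other subunits of the head had other values, and the difference between genes was not tested. ATP5F1B was at 1358 ± 32.1 CPM in NTera2 and 1376 ± 86.4 in TCam-2 (0.02 ± 0.06), and ATP5F1A, the alpha subunit, was higher by 0.81 ± 0.06. ATP5MK (1.10 ± 0.11), a small membrane subunit, and ATP5PD (0.98 ± 0.07), of the peripheral stalk, were also higher.

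ATP5IF1, the inhibitor that stops ATP synthase from running backwards, was the lowest gene of complex V. It had 192, 212, 198 and 231 CPM in NTera2 and 97.6, 92.9, 96.9 and 114 in TCam-2, a log2 fold change of -1.06 ± 0.08 (adjusted p = 3.36e-09, edgeR). ATP5MF, a membrane subunit (-0.95 ± 0.08), and ATP5PO, of the peripheral stalk (-0.80 ± 0.09), were lower. ATP5MF overlaps PTCD1 on the same strand. Of the 3 genes for the c subunit of the rotor, ATP5MC1 was higher by 0.52 ± 0.09 and ATP5MC2 by 0.24 ± 0.07, and ATP5MC3 was not called (-0.06 ± 0.07).

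Complex IV carries subunits with more than 1 gene, a widespread form and a form known from muscle, lung or testis. Of its 14 tested nuclear genes 8 were called higher and 3 lower, with a median of 0.48. The widespread forms COX6A1 (0.57 ± 0.09), COX6B1 (0.71 ± 0.09), COX7A2 (0.39 ± 0.07) and COX8A (0.60 ± 0.09) were higher in TCam-2. COX4I1 (-0.26 ± 0.08) and COX7B (-0.61 ± 0.08) were lower. COX6C, which has no second form here, was higher by 1.06 ± 0.08. NDUFA4 was not called (0.04 ± 0.06, below 0 in 6 of the other settings tried). COX7A2L, which takes part in joining complexes III and IV, was higher by 0.60 ± 0.07.

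Most restricted forms had few or no counts. COX6A2 (muscle) and COX7B2 (testis) had 0 counts in all 32 libraries, COX4I2 (lung) had 2 and COX8C (testis) 5. COX7A1, the heart and muscle form, was the exception in TCam-2, with 8.75, 11.2, 9.31 and 17.5 CPM. The NTera2 vehicle libraries held 4 counts of it in all, in 2 of 4 libraries, against 592 in TCam-2. The ratio was 189-fold with an exact 95% counting interval of 73.4 to 696, and the log2 fold change was 7.36 ± 0.46 (adjusted p = 3.24e-10, edgeR). COX6B2, a testis form, went the other way. It had 1.68, 1.78, 1.42 and 1.82 CPM in NTera2 and no count in the 4 TCam-2 vehicle libraries, so it was at least 28.2-fold lower in TCam-2 against a floor of 3 counts over the group, or 22.5-fold at the exact 95% limit that also allows for the counting error of NTera2 (adjusted p = 1.09e-06, edgeR). The other 12 TCam-2 libraries held 6 counts of it. Intervals and floors cover counting error only.

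**Figure D3:**
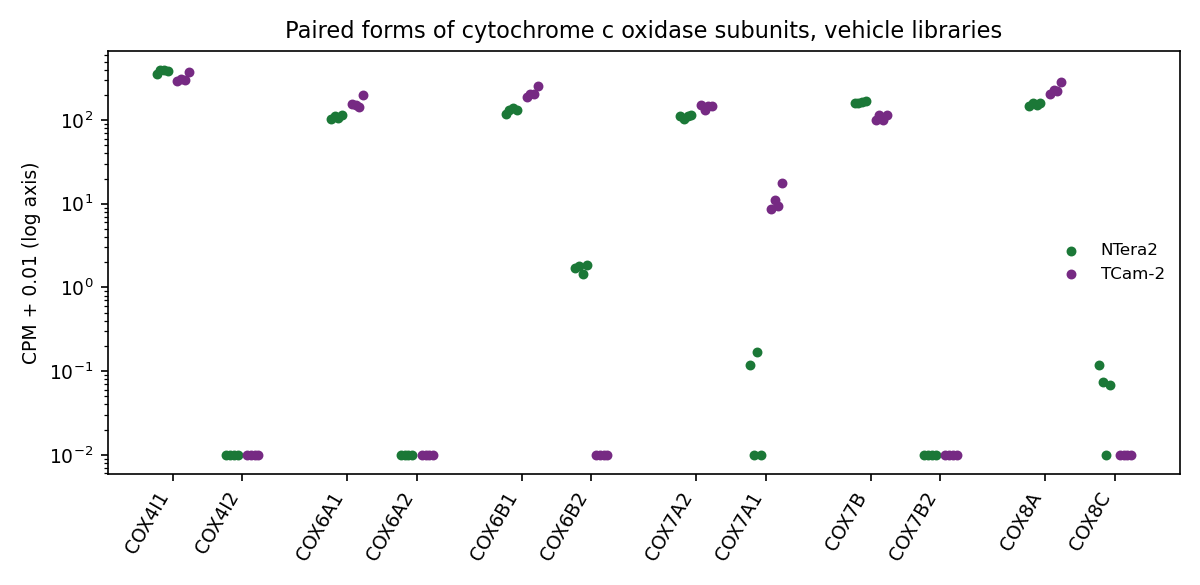
CPM of the paired forms of 6 cytochrome c oxidase subunits in each vehicle library, on a log axis after adding 0.01 so that libraries without counts are drawn at the bottom. Each point is a library; the widespread form is on the left of each pair. COX7A1 stands between 8.75 and 17.5 CPM in TCam-2, and COX6B2 between 1.42 and 1.82 CPM in NTera2.

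The promoter window of the testis form is shown beside that of its widespread partner, because both genes lie on chromosome 19 and COX6B2 had no count in TCam-2 vehicle libraries. Windows are RefSeq sequences of GRCh38.p14, 250 bases before to 50 after the annotated start.
COX6B1, chr19:35648073-35648372, plus strand: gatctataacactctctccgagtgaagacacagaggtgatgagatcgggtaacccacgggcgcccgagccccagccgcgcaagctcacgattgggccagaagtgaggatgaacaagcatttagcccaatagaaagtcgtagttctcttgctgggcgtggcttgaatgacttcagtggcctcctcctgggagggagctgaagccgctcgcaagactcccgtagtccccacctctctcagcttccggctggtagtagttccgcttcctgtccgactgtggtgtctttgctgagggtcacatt
COX6B2, chr19:55354670-55354969, minus strand: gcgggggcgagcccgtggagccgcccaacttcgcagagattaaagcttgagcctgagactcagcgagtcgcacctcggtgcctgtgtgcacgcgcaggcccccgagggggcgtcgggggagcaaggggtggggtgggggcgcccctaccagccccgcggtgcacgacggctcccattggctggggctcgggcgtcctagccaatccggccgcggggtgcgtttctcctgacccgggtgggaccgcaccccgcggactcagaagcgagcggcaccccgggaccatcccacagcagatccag
The window of COX6B2 had 72% G and C and that of COX6B1 56.7%. Neither held any of the 3 motifs searched below.

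The windows of the nuclear genes were searched on both strands for the cores of 3 motifs known from such promoters, GCGCATGC of NRF1, CCGGAAGT of ETS factors such as GABP, and AAGATGGCG of YY1. The letters of the 3 do not overlap in the windows printed. RefSeq windows were matched by symbol for 70 of the 88 nuclear genes. The NRF1 core was in 13 of the 70 (18.6%) against 3.05% of all 35116 windows, the ETS core in 10 (14.3% against 4.14%) and the YY1 core in 8 (11.4% against 1.75%). Any of the 3 was in 25 (35.7% against 8.35%). Each core contains CG, and the members' windows were richer in it: the median ratio of observed to expected CG was 0.846 against 0.579 over all windows, and the median share of G and C 61.2% against 58.7%. The 35116 windows were also not limited to the genes tested here, to which most of the members' windows belonged. The part of either in the shares was not tested. Among called genes with both an NRF1 and a YY1 core, NDUFS7 (0.82 ± 0.18) and SDHB were higher in TCam-2 and NDUFA6 (-0.46 ± 0.12) was lower. Their windows are printed with the matches in capitals, the NRF1 core on its reverse strand.
NDUFS7, chr19:1383657-1383956, plus strand: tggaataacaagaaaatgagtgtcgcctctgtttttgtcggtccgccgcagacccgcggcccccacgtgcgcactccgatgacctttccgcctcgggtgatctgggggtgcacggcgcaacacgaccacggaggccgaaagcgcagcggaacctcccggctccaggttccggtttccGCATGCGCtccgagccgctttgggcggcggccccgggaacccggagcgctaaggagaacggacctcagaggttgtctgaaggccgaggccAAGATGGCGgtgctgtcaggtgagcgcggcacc
SDHB, chr1:17053983-17054282, minus strand: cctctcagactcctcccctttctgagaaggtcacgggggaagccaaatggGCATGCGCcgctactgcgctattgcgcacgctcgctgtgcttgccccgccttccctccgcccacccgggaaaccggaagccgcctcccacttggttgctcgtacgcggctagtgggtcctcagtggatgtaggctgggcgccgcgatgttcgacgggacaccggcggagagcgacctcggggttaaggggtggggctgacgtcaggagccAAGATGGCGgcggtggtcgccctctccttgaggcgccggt
NDUFA6, chr22:42090723-42091022, minus strand: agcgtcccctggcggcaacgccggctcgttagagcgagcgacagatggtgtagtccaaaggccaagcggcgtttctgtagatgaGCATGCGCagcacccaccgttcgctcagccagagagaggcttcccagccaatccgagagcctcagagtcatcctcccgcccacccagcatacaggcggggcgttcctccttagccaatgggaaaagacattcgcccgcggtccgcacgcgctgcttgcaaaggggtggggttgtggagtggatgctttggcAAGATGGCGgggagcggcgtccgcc
The median log2 fold change between the lines was above 0 with and without each motif, and was not always higher with it. It was 0.05 over the 13 genes with the NRF1 core (6 called higher, 3 lower) and 0.37 over the 54 without. For the ETS core it was 0.33 with and 0.32 without, and for the YY1 core 0.60 with and 0.28 without. With any of the 3 it was 0.54 over 25 tested genes, 14 called higher and 4 lower, and without it was 0.30 over 42, 21 higher and 12 lower. None of these differences was tested. A match is a match of letters and no evidence of binding.

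Members were also counted by chromosome. On chromosome 5 all 6 members were called higher (NDUFS6, COX7C, UQCRQ, NDUFA2, NDUFS4 and SDHA; median log2 fold change 0.87), where 56.9% of the 771 genes tested were called higher and the median was 0.57. On chromosome 8 the 4 members CYC1, UQCRB, COX6C and NDUFB9 were called higher (median 0.89), where 56.2% of 603 genes were higher and the median was 0.59. On chromosome 7, 3 of 4 members were lower (NDUFA5, ATP5MF and NDUFB2), where 51.7% of 824 genes were lower and the median was -0.41. Chromosome 19 had 7 of 12 members higher and 1 lower, where 35.8% of 1186 genes were higher and the median was 0.05. Chromosome 1 had 1 of 8 higher and 4 lower, where 30.3% of 1720 genes were higher and 46.5% lower, with a median of -0.25. The part of chromosomes in the gene differences was not tested.

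Summed over genes, the 13 mitochondrial mRNAs held 3.22% ± 0.16 of all counts in NTera2 vehicle libraries and 1.97% ± 0.20 in TCam-2, and the nuclear respiratory chain genes 1.14% ± 0.02 and 1.20% ± 0.07. The log2 ratio of the mitochondrial to the nuclear sum does not depend on library size. It was 1.58, 1.39, 1.53 and 1.47 in the NTera2 vehicle libraries and 0.96, 0.56, 0.69 and 0.64 in TCam-2, so the highest TCam-2 library was below the lowest NTera2 library. The means were 1.49 ± 0.08 and 0.71 ± 0.17, a difference of -0.78. Within complexes the difference in this ratio was -0.64 for complex I, -0.60 for complex III, -0.88 for complex IV and -1.20 for complex V. A ratio in bulk RNA shows unequal levels and does not tell fewer mitochondria from less RNA in each.

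Genes that build, transcribe and feed the chain were followed in 4 lists, to be read against the 37.4% of all genes called higher and 38.8% called lower. Of 51 assembly factors 21 were higher in TCam-2 and 19 lower (median 0.05). The highest were NDUFAF7 (1.71 ± 0.08), NDUFAF8 (1.61 ± 0.13) and UQCC3 (1.54 ± 0.18), factors of complexes I, I and III in that order. The lowest were the complex II factors SDHAF3 (-2.08 ± 0.19) and SDHAF4 (-1.66 ± 0.21) and the cytochrome oxidase factor COA7 (-1.61 ± 0.07).

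Of 32 genes of mitochondrial DNA upkeep, transcription and RNA handling 14 were higher and 9 lower (median -0.04). TFAM, which packs mitochondrial DNA and starts its transcription, was higher in TCam-2, at 71.4 ± 7.20 CPM against 47.6 ± 5.26 (0.58 ± 0.10). The mitochondrial RNA polymerase POLRMT was not called (-0.17 ± 0.11). LRPPRC, which with SLIRP protects mitochondrial mRNAs, was not called (0.10 ± 0.08), and SLIRP was higher (0.87 ± 0.08), the highest of the list. TOP1MT, the mitochondrial topoisomerase (0.78 ± 0.11), and MTERF3 (0.68 ± 0.14) followed. The lowest were FASTKD1, an RNA-binding protein, at 8.06 ± 1.46 CPM in TCam-2 and 40.7 ± 3.63 in NTera2 (-2.34 ± 0.14), the ribonuclease REXO2 (-1.71 ± 0.12) and SSBP1, which binds single-stranded mitochondrial DNA (-1.17 ± 0.08).

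Of 12 nuclear regulators of mitochondrial biogenesis 7 were higher and 1 lower (median 0.27). NRF1 was higher by 0.26 ± 0.09, GABPA was not called (0.01 ± 0.12), and the coactivator PPARGC1A was low in both lines, at 2.12 ± 0.446 CPM in TCam-2 and 1.73 ± 0.748 in NTera2, and not called. ESRRB, an orphan nuclear receptor of pluripotent cells, was highest (2.65 ± 0.25), followed by GABPB2 (1.17 ± 0.17) and MYC (0.67 ± 0.18), and PPARGC1B was the one lower gene (-0.46 ± 0.13). Of 30 genes of the citric acid cycle and electron carriers 13 were higher and 7 lower (median 0.16). SUCLA2 (1.62 ± 0.09), ETFB (1.45 ± 0.13) and IDH3A (1.36 ± 0.11) were the highest. IDH2, the NADP-dependent isocitrate dehydrogenase, was lowest, at 7.48 ± 1.05 CPM in TCam-2 and 72.9 ± 3.45 in NTera2 (-3.28 ± 0.11), then SUCLG2 (-0.88 ± 0.11), the partner form to SUCLA2, and COQ3 (-0.77 ± 0.17). Cytochrome c, CYCS, was not called (0.09 ± 0.09).

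The treatments were compared with vehicle within each line. In every one of the 6 comparisons with vehicle the median of the mitochondrial mRNAs was above that of the nuclear genes, for TCam-2 OPG not without OPG replicate 1 or vehicle replicate 2, and no single respiratory chain gene passed the adjusted threshold. All treatments of a line share its vehicle libraries, so their values are not independent of each other. Most of the 13 mitochondrial mRNAs are cut from shared long RNAs, and all were read in the same libraries. Counts out of the 13 are therefore not 13 separate observations. A share over all genes printed beside such a count is no chance rate for it. Called members numbered 0 in each of the 13 comparisons by treatment, inhibitor and line difference, as did called genes overall. DESeq2 called 0 to 14 genes of all tested in each of the 13, and of the members only MT-CO3, MT-ND2, MT-ND5 and MT-CYB, as higher in NTera2 under denosumab. Unadjusted counts are given below for that reason. Pairing libraries by passage (the replicate block) changed some calls, which are given beside each comparison. The CPM of treated and vehicle groups did not overlap for 4, 9 and 13 of 97 members in NTera2 under RANKL, OPG and denosumab. In TCam-2 the numbers were 0, 1 and 3 of 97 in the same order. Genes described below as without overlap are among these, and the share over all genes was not counted.

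**Figure D4:**
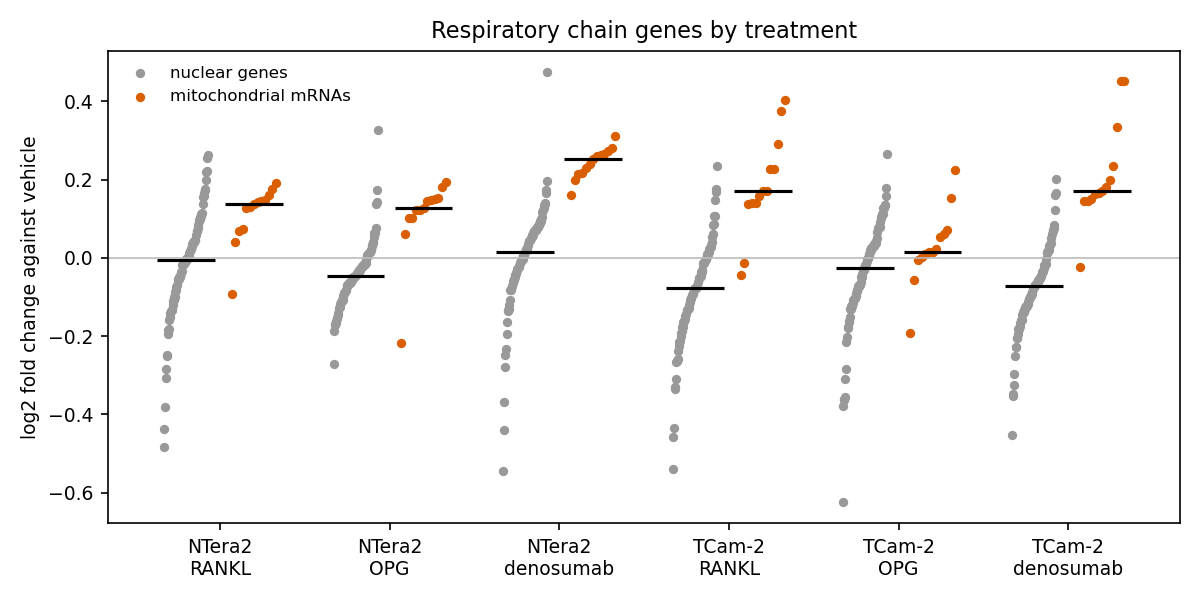
Log2 fold change against vehicle of each tested nuclear respiratory chain gene (grey) and each of the 13 mitochondrial mRNAs (orange), by line and treatment, with group medians as bars. The mitochondrial medians run from 0.01 (TCam-2 OPG) to 0.25 (NTera2 denosumab) and the nuclear medians from -0.08 to 0.02.

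NTera2 under denosumab had the highest median of the mitochondrial mRNAs among the 6. The mRNAs of the mitochondrial genome lay above vehicle, with log2 fold changes from 0.16 to 0.31 in 13 of 13 and a median of 0.25, against 0.02 for the nuclear genes and 0.01 for all genes. At an adjusted p under 0.05, 0.0% of all genes tested were called. At an unadjusted p under 0.05 stood 21 of 97 members, 11 of them mitochondrial mRNAs, against 7.25% of all genes. CPM was above the vehicle library of the same passage in all 4 passages for 12 of the 13 mRNAs, which 8.11% of all genes showed. The 13 mRNAs are not independent of each other. The smallest p-values were those of MT-CO3 (0.26 ± 0.06), MT-ND2 (0.27 ± 0.06) and MT-CYB (0.25 ± 0.05), each with an adjusted p of 0.28 (edgeR). Of the nuclear genes, COX5B (-0.28 ± 0.07), NDUFS7 (-0.54 ± 0.16) and NDUFA11 (-0.37 ± 0.11) had the smallest p-values, with adjusted p of 0.32, 0.41 and 0.41 (edgeR).

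With the passages as a block, 9 members were called in NTera2 under denosumab, where 0.173% of all genes were. They were the mitochondrial mRNAs MT-ATP6, MT-ND2, MT-CO3, MT-CO2, MT-ND4 and MT-CYB and both rRNAs as higher, and COX5B as lower. MT-ATP6 had 1865, 1621, 1709 and 1695 CPM under vehicle and 2310, 1964, 1984 and 2050 under denosumab, so the groups did not overlap. Its log2 fold change in that fit was 0.28 ± 0.04 (adjusted p = 0.0018, edgeR), against an adjusted p of 0.32 without the block and a range of 0.000102 to 1.00 over all settings. MT-RNR1 had 223, 259, 233 and 256 CPM under vehicle and 325, 309, 270.3 and 292 under denosumab (0.31 ± 0.05, adjusted p = 0.0067, edgeR with the block). COX5B, a subunit of complex IV on the matrix side, had 111, 132, 111 and 137 CPM under vehicle and 91.6, 105, 101 and 102 under denosumab, again without overlap (-0.28 ± 0.05, adjusted p = 0.026, edgeR with the block). Without NTera2 denosumab replicate 3, and with no block, 1 member was called (MT-ND5), and without vehicle replicate 3 there were 2 (MT-ND2 and MT-CYB).

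NTera2 under RANKL had a mitochondrial median of 0.14 and a nuclear median of -0.01. At the adjusted threshold 0.0% of all genes were called. At an unadjusted p under 0.05 stood 23 of 97 members, 7 of them mitochondrial mRNAs, against 10.3% of all genes. CPM was above vehicle in all 4 passages for 1 of the 13 mRNAs (9.0% of all genes). It was below vehicle in all 4 for 1, MT-ND6, with log2 differences of -0.17, -0.21, -0.02 and -0.02. For no treatment was the share of all genes below vehicle in all 4 passages counted. In replicate 3 the summed ratio to the nuclear genes was below that of vehicle. The members with the smallest p-values were ATP5PO (0.26 ± 0.06) and COX5B (-0.28 ± 0.07), each with an adjusted p of 0.37 (edgeR), then NDUFB7 (-0.38 ± 0.13). ATP5PO had 114, 117, 115 and 114 CPM under vehicle and 144, 124, 133 and 144 under RANKL, and the groups did not overlap. MT-CO2 (0.15 ± 0.05), MT-ND2 (0.16 ± 0.06) and MT-CO3 (0.15 ± 0.06) led the mitochondrial genes, with adjusted p of 0.38, 0.40 and 0.41 (edgeR).

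NTera2 under OPG had a mitochondrial median of 0.13 and a nuclear median of -0.05. At the adjusted threshold 0.0% of all genes were called, and at an unadjusted p under 0.05 stood 11 of 97 members against 1.68% of all genes. CPM was above vehicle in all 4 passages for 9 of the 13 mRNAs (6.73% of all genes) and below it in all 4 for 1, MT-ND6, with log2 differences of -0.32, -0.23, -0.38 and -0.04. COX5B was again the nuclear gene with the smallest p (-0.27 ± 0.07), before UQCRQ (-0.17 ± 0.07) and NDUFB2 (-0.14 ± 0.06). MT-CYB (0.15 ± 0.05), MT-CO3 (0.15 ± 0.06) and MT-ATP6 (0.18 ± 0.07) led the mitochondrial genes, and every adjusted p was 1.00 (edgeR).

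TCam-2 under denosumab had a mitochondrial median of 0.17 and a nuclear median of -0.07, against -0.01 for all genes. At the adjusted threshold 0.0% of all genes were called, and at an unadjusted p under 0.05 stood 18 of 97 members, 8 of them mitochondrial mRNAs, against 6.56% of all genes. CPM was above vehicle in all 4 passages for 11 of the 13 mRNAs (10.8% of all genes). MT-ND4L, a small membrane subunit of complex I, had 739, 562, 651 and 552 CPM under vehicle and 867, 766, 894 and 958 under denosumab, so the groups did not overlap. Its log2 fold change was 0.45 ± 0.09 (adjusted p = 0.54, edgeR). MT-ATP8 (0.45 ± 0.12) and MT-ND4 (0.24 ± 0.07) followed. NDUFA13 (-0.45 ± 0.14), COX6B1 (-0.23 ± 0.08) and COX4I1 (-0.23 ± 0.08) led the nuclear genes, with adjusted p of 0.73 each (edgeR). With the passages as a block, 2 members were called as higher, where 0.012% of all genes were: MT-ND4L (0.45 ± 0.07) and MT-ND5 (0.34 ± 0.06), each with an adjusted p of 0.043 (edgeR with the block). Without TCam-2 vehicle replicate 1, and with no block, MT-ND4L alone was called. Without vehicle replicate 4 the nuclear median was -0.01.

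TCam-2 under RANKL had the same mitochondrial median of 0.17, and a nuclear median of -0.08. At the adjusted threshold 0.0% of all genes were called, and at an unadjusted p under 0.05 stood 19 of 97 members, 6 of them mitochondrial mRNAs, against 8.92% of all genes. CPM was above vehicle in all 4 passages for 9 of the 13 mRNAs (13.1% of all genes). MT-ND4L (0.37 ± 0.09), MT-ATP8 (0.40 ± 0.12) and MT-ND4 (0.23 ± 0.07) led the mitochondrial genes, and NDUFA13 (-0.54 ± 0.14), COX6B1 (-0.21 ± 0.08) and NDUFA2 (-0.18 ± 0.07) the nuclear ones, with adjusted p of 0.56 each (edgeR). Without the 2 libraries of low RNA integrity the mitochondrial median was 0.23 and the nuclear median -0.10, and 31 of 97 members stood at an unadjusted p under 0.05, against 14.6% of all genes in that fit. Without vehicle replicate 4 the nuclear median was -0.01.

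TCam-2 under OPG gave other values, and OPG is set against RANKL below. The mitochondrial median was 0.01, with a range of -0.0280 (without vehicle replicate 2) to 0.0877 (without OPG replicate 3), and the nuclear median -0.02. At the adjusted threshold 0.0% of all genes were called, and at an unadjusted p under 0.05 stood 7 of 97 members, 0 of them mitochondrial mRNAs, against 8.68% of all genes. CPM was above vehicle in all 4 passages for 0 of the 13 mRNAs (8.19% of all genes). NDUFA13, an accessory subunit of complex I, had 29.1, 35.4, 27.3 and 49.2 CPM under vehicle and 24.4, 19.7, 24.4 and 24.2 under OPG, without overlap (-0.62 ± 0.14, adjusted p = 0.39, edgeR). Vehicle replicate 4 was the highest library. NDUFA13 overlaps YJEFN3 on the same strand. UQCRB (0.26 ± 0.08), NDUFB7 (-0.38 ± 0.15), MT-RNR1 (-0.35 ± 0.14), MT-ATP8 (0.23 ± 0.12) and MT-ND4L (0.15 ± 0.09) were named by rule, and none was called. The nuclear median without vehicle replicate 4 was 0.04.

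The ratio of the 2 genomes was compared library by library, with no test. In NTera2 its log2 differences from the vehicle library of the same passage were 0.21, 0.27, 0.13 and 0.29 under denosumab, a mean of 0.23 ± 0.07, and the lowest denosumab library (1.66) was above the highest vehicle library (1.58). Under OPG the differences were 0.16, 0.25, 0.10 and 0.19 (mean 0.17 ± 0.06), also without overlap. Under RANKL they were 0.14, 0.25, -0.09 and 0.14 (mean 0.11 ± 0.14), with overlap. In TCam-2 the differences were 0.05, 0.23, 0.31 and 0.44 under denosumab (mean 0.26 ± 0.16) and 0.07, 0.12, 0.36 and 0.40 under RANKL (mean 0.24 ± 0.16). Under OPG they were -0.04, 0.06, -0.06 and 0.17 (mean 0.03 ± 0.10), and the mean difference between the groups ran from -0.03 (without OPG replicate 1) to 0.11 (without vehicle replicate 1). The TCam-2 groups overlapped in all 3. RANKL replicate 2, a library of low RNA integrity, had the lowest ratio of its group (0.69), and RANKL replicate 4, the other, had 1.04.

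**Figure D5:**
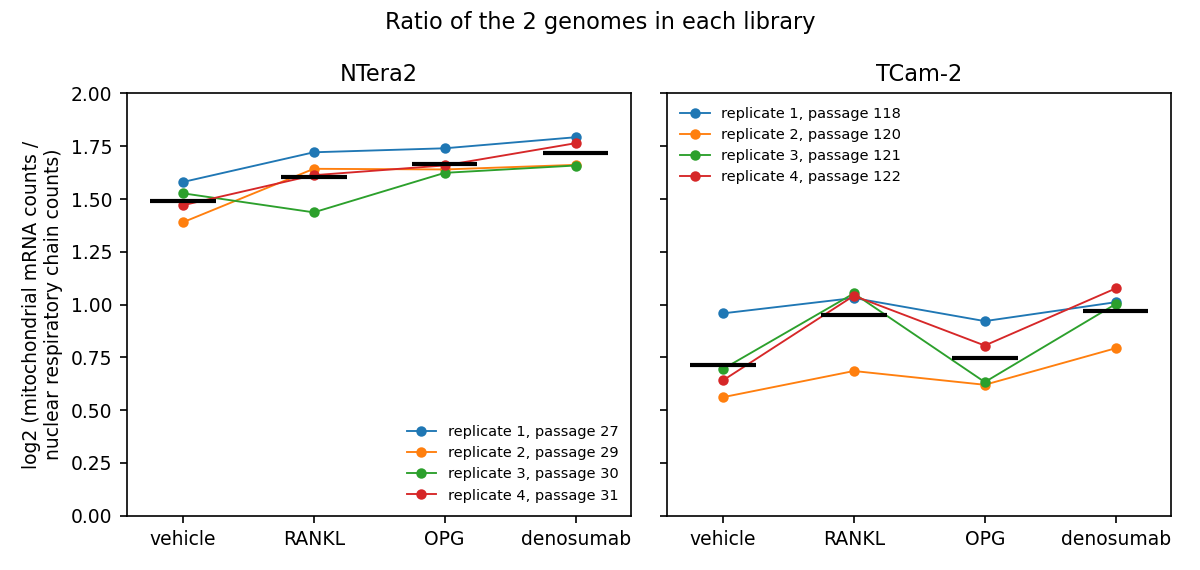
Log2 ratio of the summed counts of the 13 mitochondrial mRNAs to those of the nuclear respiratory chain genes in each library, by treatment, with libraries of the same passage joined and group means as bars. All NTera2 libraries lie above all TCam-2 libraries, and the means under denosumab are 1.72 in NTera2 and 0.97 in TCam-2.

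The 4 comparisons of an inhibitor with RANKL asked whether OPG or denosumab differed from the ligand. In TCam-2, OPG lay below RANKL for 13 of 13 mitochondrial mRNAs (median -0.17), while the nuclear median was 0.06. At the adjusted threshold 0.0% of all genes were called, and 6 of 97 members stood at an unadjusted p under 0.05, against 5.14% of all genes. The smallest p-values were those of MT-ND4L (-0.22 ± 0.09), MT-ATP6 (-0.22 ± 0.09) and MT-CYB (-0.17 ± 0.07) and, of the nuclear genes, NDUFS3 (0.20 ± 0.09), ATP5MK (-0.19 ± 0.09) and NDUFB9 (0.18 ± 0.09), each with an adjusted p of 0.89 (edgeR). Without the 2 libraries of low RNA integrity the mitochondrial median was -0.23. Denosumab against RANKL in TCam-2 gave medians of 0.01 (-0.0602 without those libraries) and -0.00, 0 of 97 members at an unadjusted p under 0.05 against 0.933% of all genes, and 0.0% called.

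In NTera2, OPG against RANKL had medians of 0.01 (mitochondrial; -0.0701 without RANKL replicate 3) and -0.05 (nuclear), with 0.0% of all genes called, and 9 of 97 members at an unadjusted p under 0.05 against 5.01% of all genes. ATP5PO (-0.19 ± 0.06), NDUFB3 (-0.31 ± 0.10) and ATP5F1E (-0.21 ± 0.07) had the smallest p-values. Denosumab against RANKL had medians of 0.12 and 0.02 (mitochondrial median 0.0576 without RANKL replicate 3), with 0.0% called, and 8 of 97 members at an unadjusted p under 0.05 against 4.36% of all genes. MT-RNR1 (0.22 ± 0.07), MT-ND6 (0.32 ± 0.12) and MT-ND5 (0.18 ± 0.07) led, before ATP5PO (-0.15 ± 0.06). The adjusted p of each was 0.91 or more (edgeR).

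The difference between the lines in their response was tested directly. For RANKL 4 of 98 members stood at an unadjusted p under 0.05, against 5.22% of all genes, and 0.0% were called. For OPG there were 5 of 98 against 5.2%, and 0.0% were called. For denosumab there were 4 of 98 against 4.78%, and 0.0% were called. The smallest p-values were those of NDUFS4 (-0.33 ± 0.12) and MT-ND4L (0.35 ± 0.15) for RANKL, and of NDUFA13 (-0.61 ± 0.19) and MT-RNR1 (-0.46 ± 0.17) for OPG. For denosumab they were those of MT-RNR1 (-0.54 ± 0.17) and NDUFAB1 (0.22 ± 0.09), where a negative value means a lower response in TCam-2. With the passages as a block MT-RNR1 was the one gene called for denosumab, 0.0052% of all tested (-0.54 ± 0.10, adjusted p = 0.042, edgeR with the block). In TCam-2 it had 154, 132, 113.5 and 113.5 CPM under vehicle and 126, 95.1, 111.5 and 102 under denosumab, below vehicle in all 4 passages, where in NTera2 it was above vehicle in all 4. Under OPG MT-RNR1 was also below vehicle in all 4 TCam-2 passages, and under RANKL it was above vehicle in 1. MT-RNR2 was above vehicle in all 4 TCam-2 passages under denosumab. No other mitochondrial gene was called for a difference between the lines.

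The 4 pathway lists held no called gene in any of these comparisons. In NTera2 under denosumab, 2 of 51 assembly factors, 3 of 32 genes of mitochondrial DNA upkeep and RNA handling, 1 of 12 regulators and 0 of 30 genes of the citric acid cycle stood at an unadjusted p under 0.05, where 7.25% of all genes did.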

How the data were processed

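Polyadenylated RNA of 32 libraries was analysed from 1 deposited table of read counts. Per the submitters' processing notes, the authors used bcl2fastq 2.20.0, STAR 2.7.9a and featureCounts 1.6.2 with GRCh38/hg38. Libraries were stranded per the labels' protocols, and how strand was set in counting, and which annotation was counted, is not given in the sources used here, so antisense and overlapping genes are uncertain. Overlaps are named beside some genes only. Other named genes also overlap an annotated gene on the same strand, NDUFV1, NDUFS3, NDUFA6, ATP5PO, COX6A1, COX6B2 and COX8A among them. The table also gave a gene length, a value other than a count deposited by the authors, used for levels per kilobase. All 32 columns were matched to samples, and 0 were left over. Mitochondrial genes carry MT- names from the gene name table, matched by identifier for all 37 rows of that chromosome.

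Tests used edgeR 4.0.16 under R 4.3.3, with its expression filter, TMM scaling and robust quasi-likelihood fits, p-values being adjusted by Benjamini-Hochberg, and, as an alternative, DESeq2 1.42.0. SEs were derived from the fold change and its F value. The vehicle libraries were fitted for the comparison of the lines, the 16 libraries of a line for treatments and inhibitors, and all 32 for differences between the lines. Scripts were tested on simulated data. The members, lists and tests were chosen with earlier results of these data known. Named genes were all mitochondrial genes, the paired subunits and up to 3 called genes per complex and direction between the lines, and otherwise called genes or the 3 of each genome with the smallest p; in each list, the 3 called genes furthest in each direction and a few set by name. No pair of libraries of 1 group was alike within counting noise (chi-square per degree of freedom 2.57 to 17.5). Each replicate number marks 1 passage within a line per the labels. Deviations from group means of same-numbered libraries correlated at a median of 0.25 in NTera2 (lowest -0.16) and 0.20 in TCam-2 (lowest -0.29). Those of differently numbered libraries correlated at -0.12 and -0.06. Deviations from a group mean cancel over its libraries, so the latter values largely follow from the former and are no separate evidence of pairing. The addition of nuclear copies was chosen after seeing the data. Alternatives covered scaling, the filter, the test, the block, the libraries fitted, RNA integrity, nuclear copies and leaving out each library.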

Additional observations from a re-analysis of the deposited data

Results flagged for a closer look

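A library was listed when it stood apart from the other 3 of its group by Dixon's criterion, which chance meets in about 5% of groups; 14 of the 209 groups of values examined (6.70%) met it. Among sums over genes, the mitochondrial rRNAs held 0.138% of counts in TCam-2 vehicle replicate 1 against 0.106% to 0.108% in the others. TCam-2 RANKL replicate 2, with an RNA integrity number of 6.1, had a log2 ratio of mitochondrial to nuclear counts of 0.69 against 1.03 to 1.05, and 1.91% of counts in mitochondrial mRNAs against 2.34% to 2.40%. In the same library MT-ATP6 was at 883 CPM against 1123 to 1162, and ATP5MK at 95.1 CPM against 108 to 109.

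The other libraries stood apart in single genes. In NTera2 vehicle replicate 2, MT-ND5 was at 1554 CPM against 1625 to 1633 and UQCRH at 527 CPM against 463 to 472. NDUFA5 was at 17.7 CPM in TCam-2 vehicle replicate 2 against 11.9 to 12.8, and ATP5MC3 at 342 CPM in TCam-2 vehicle replicate 4 against 277 to 285. MT-CYB was at 2287 CPM in NTera2 denosumab replicate 1 against 2073 to 2108. In the OPG groups, MT-ATP8 was at 154 CPM in TCam-2 replicate 3 against 205 to 209.8, NDUFA13 at 19.7 CPM in TCam-2 replicate 2 against 24.2 to 24.4, and MT-ND4L at 967 CPM in NTera2 replicate 1 against 905 to 909. ATP5F1E was at 79.8 CPM in NTera2 RANKL replicate 4 against 70.0 to 71.3.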

How the results depend on the processing

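Between the lines, the number of respiratory chain genes called was within 1.5 times the reported 74 under every alternative (74 to 89). The nuclear median was 0.187 with no low-count filter, which also moved the median of all genes to -0.12, and 0.0995 to 0.255 when 1 library was left out, lowest without TCam-2 vehicle replicate 4. In the treatment comparisons no filter on low counts gave 3 called members for NTera2 RANKL (COX5B, NDUFB7 and ATP5PO), 14 for NTera2 denosumab, 6 for TCam-2 RANKL, 3 for TCam-2 OPG (NDUFA13, NDUFB7 and MT-RNR1), 4 for TCam-2 denosumab (MT-ND4L, MT-ATP8, MT-ND5 and MT-ND4) and 1 for the line difference under denosumab (MT-RNR1), against 0. In the same fits 0.483%, 0.650%, 0.144%, 0.152%, 0.0789% and 0.0795% of all genes were called, in that order. DESeq2 gave 4 for NTera2 denosumab. The replicate block gave 9 for NTera2 denosumab, 2 for TCam-2 denosumab and 1 for the line difference under denosumab, and changed no other call. Leaving out 1 library gave 0 to 2 for NTera2 denosumab and 0 to 1 for TCam-2 denosumab. Leave-one-out nuclear medians ran from -0.109 to -0.0120 for TCam-2 RANKL, -0.0503 to 0.0383 for TCam-2 OPG, -0.109 to -0.0103 for TCam-2 denosumab, and, for the line differences, -0.0514 to 0.0389 (RANKL), 0.0230 to 0.116 (OPG) and -0.0723 to 0.0228 (denosumab), each highest without TCam-2 vehicle replicate 4. Leave-one-out mitochondrial medians changed sign for TCam-2 OPG (-0.0280 to 0.0877), NTera2 OPG against RANKL (-0.0701 to 0.0367), TCam-2 denosumab against RANKL (-0.0650 to 0.0535) and the line difference under denosumab (-0.0946 to 0.0336), and moved by over 1.5 times for NTera2 denosumab against RANKL (0.0576 to 0.166), TCam-2 RANKL (0.111 to 0.223) and the line differences under RANKL (0.0416 to 0.170) and OPG (-0.126 to -0.0003). The cause was not tested. The 7 differences in the ratio of the 2 genomes were tried with 1 library left out and with means of log2 CPM over genes. They moved by less than the spread between libraries, though the one for TCam-2 OPG, near 0, changed sign. The other alternatives, such as leaving out both libraries of low RNA integrity, were not run on the ratio. Among named genes between the lines, MT-ND1 was 0.0691 with nuclear copies added. NDUFA4 was -0.0030 with RLE size factors, -0.0028 with DESeq2, -0.020 with no filter and -0.018 to 0.0501 when 1 library was left out. With 1 library left out, MT-ND4L ran from -0.0321 to 0.152 in NTera2 OPG against RANKL (lowest without RANKL replicate 3) and from -0.0053 to 0.129 in TCam-2 denosumab against RANKL (lowest without RANKL replicate 2), and MT-RNR1 in the latter from -0.169 to 0.0819 (highest without RANKL replicate 1). None of these genes was called there. Depth limits the restricted complex IV subunits, whose floors of 3 counts stood at 0.060 CPM in TCam-2 and 0.047 CPM in NTera2.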

Other observations

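The 22 mitochondrial tRNAs held 13376 counts over the 32 libraries, 0.0898% of the counts of the mitochondrial chromosome. Of these, 73.9% belonged to 1 gene, MT-TL1, the leucine tRNA that lies between MT-RNR2 and MT-ND1, with 4026 counts in the 16 NTera2 libraries and 5864 in the 16 TCam-2 libraries. MT-TT followed with 531 counts. UQCRHL, a gene-like copy of UQCRH, was at 6.44 ± 1.65 CPM in TCam-2 vehicle libraries and 8.17 ± 0.883 in NTera2 (n = 4 each), and reads of the 2 genes may be split between them.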
